A study of Gallus gallus with 6 samples.

Results

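The acetylcholine receptor and neuromuscular junction genes were examined in the breast muscle of female broilers aged 35 days. The set was defined by 9 gene names, and 8 of them were found as row names in a deposited table of 20943 genes: CHRNA1, CHRND, CHRNG, MUSK, RAPSN, NCAM1, AGRN and DOK7. CHRNB1, the name of the receptor's beta subunit gene, was not among the row names. All 8 genes reached a mean of 1 FPKM, the minimum for testing, which 11320 genes of the table reached. FPKM is a fragment count divided by the length of the gene and the depth of the library.

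The control group received a basal diet with 0 IU/kg of added vitamin E, and the other group received the same diet with 100 IU/kg as DL-α-tocopheryl acetate, the acetate ester of the membrane antioxidant α-tocopherol. Each group had 3 libraries of poly(A)-selected RNA from the pectoralis major, the main flight muscle. Whether each of the 3 tissue samples in a group came from its own bird is not stated in the labels, and the p-values therefore reflect only the spread among these samples. The deposited FPKM values implied totals between 14161399 and 25477341 reads for the 6 libraries, the most in control replicate 1. That library also stood apart over all tested genes, at -34.4 on a first principal component (38.4% of the variance). The other 5 lay between -14.2 and 17.4 there, with control replicate 3 the lowest of them. Control replicate 3 stood at -26.4 on the second component, where the others lay between -5.12 and 15.4. Fibre genes marked the tissue as labelled, with the skeletal actin gene ACTA1 between 22897 and 37440 FPKM. RNA of motor axons was almost absent, since the 9 axon markers in the table summed to between 0.557 and 2.44 FPKM per library, and CHAT, the acetylcholine-synthesizing enzyme gene, had reads in 1 library only. The Schwann cell factor gene SOX10 lay between 0.118 and 0.224 FPKM. In whole muscle, fewer synaptic nuclei and less RNA per nucleus cannot be told apart.

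At the neuromuscular junction a motor nerve ending releases acetylcholine onto a small, densely packed patch of receptors on the muscle fibre. The muscle receptor is a ring of alpha, beta, delta and gamma or epsilon subunits around a cation channel. In mammals the gamma subunit belongs to fetal and denervated muscle and is replaced by epsilon at mature junctions. The patch is built by a signalling chain in which agrin acts through LRP4 on the receptor tyrosine kinase MuSK, DOK7 activates MuSK from inside the fibre, and rapsyn (RAPSN) anchors and clusters the receptors. Transcripts of receptor subunits are made mainly by nuclei beneath the synapse in innervated fibres, and by nuclei along the whole fibre after loss of the nerve, as known from mammals and chickens.

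No difference between the diets was detected in any of the 8 genes. Limma with Benjamini-Hochberg adjustment over all 11320 genes called 0 of 8 at an adjusted p of 0.05, against 0% of all genes, and the same held without control replicate 1 (0 of 8, against 0%). At an unadjusted p under 0.05 there were also 0 of 8, where 9.11% of all genes passed. The groups overlapped in all 8, where 14.6% of all genes did not overlap. The median log2 difference of the 8 genes was -0.15 on the log2(FPKM + 1) scale, which understates changes of low genes, and that of all tested genes was 0.019. That median leaned on control replicate 1. Without that library CHRND, CHRNG and NCAM1 turned above 0, to 0.49, 0.32 and 0.012, and CHRNA1 turned below 0, to -0.014. Among the 8 genes, CHRND and CHRNG, the delta and gamma receptor subunits, stood far above every other library in control replicate 1. CHRNA1, RAPSN and DOK7 lay below their log2 means there, by -0.22, -0.42 and -0.13.

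**Figure D1:**
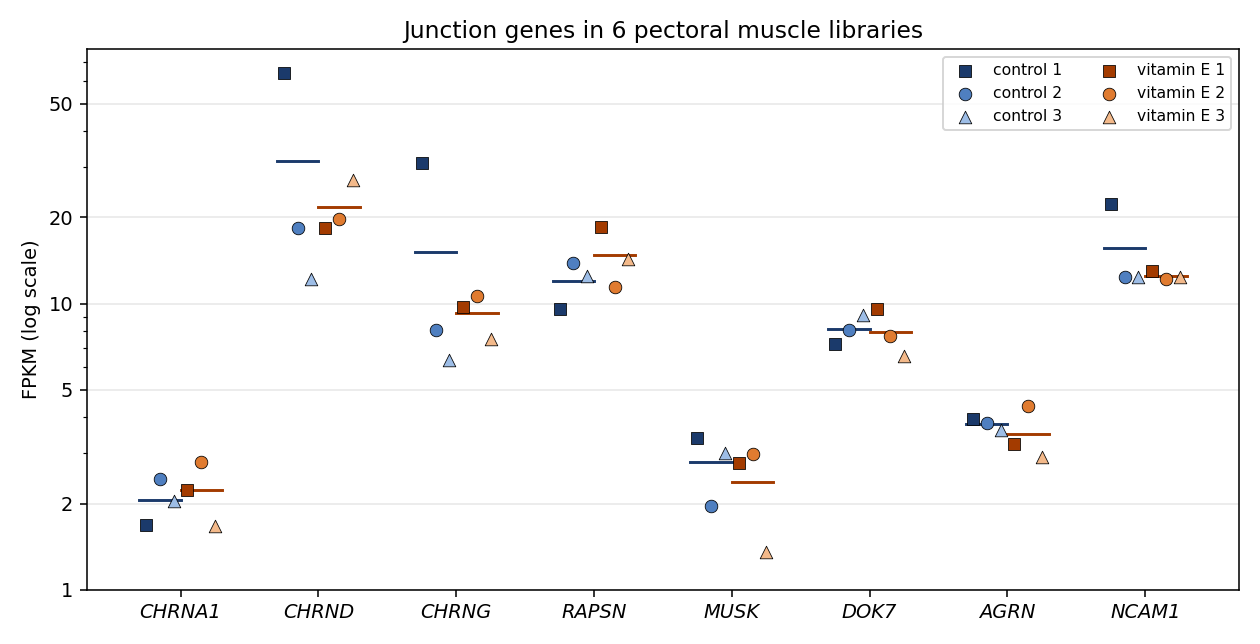
FPKM on a log axis of the 8 genes in each of the 6 libraries, with controls in blue, vitamin E in orange, replicate numbers by symbol and a line at each group mean. CHRND and CHRNG stand at 63.7 and 31.0 FPKM in control replicate 1, above all other libraries, and every gene overlaps between the groups.

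Among the receptor subunits, CHRNA1 encodes the alpha subunit, which carries the main part of the acetylcholine binding site. It lies on chromosome 7 at 16863561 to 16875589, in the coordinates of the deposited table, for which no build was named. CHRNA1 measured 1.68, 2.43 and 2.05 FPKM in control replicates 1 to 3 and 2.24, 2.80 and 1.67 FPKM with vitamin E. The highest and the lowest library were both in the vitamin E group. The means were 2.05 ± 0.374 FPKM for control and 2.23 ± 0.565 FPKM for vitamin E libraries (SD, n = 3 each). Their difference on the log2 scale was 0.075 ± 0.17 (SE), with a 95% interval from -0.33 to 0.48 (limma, adjusted p = 0.927), and it turned to -0.014 without control replicate 1.

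CHRND encodes the delta subunit and was the most abundant of the 8 genes per length. It lies on chromosome 9 at 15648682 to 15651873. Its values were 63.7, 18.4 and 12.2 FPKM in the controls and 18.4, 19.7 and 27.1 FPKM with vitamin E. Control replicate 1 was 2.35-fold above the next library, which was vitamin E replicate 3, and the other 2 controls lay at or below the lowest vitamin E library. The control mean of 31.4 ± 28.1 FPKM therefore had a spread nearly as large as itself, against 21.7 ± 4.69 FPKM in the vitamin E group (SD, n = 3 each). With all libraries, the log2 difference was -0.18 ± 0.54 (SE), with an interval from -1.44 to 1.07 (limma, adjusted p = 0.948). Without control replicate 1 the remaining controls averaged 15.3 FPKM and the difference turned to 0.49 ± 0.23, with an interval from -0.066 to 1.04 (limma, adjusted p = 0.666).

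CHRNG encodes the gamma subunit and starts 740 bases beyond the end of CHRND on the same strand, at 15652614 to 15656719 on chromosome 9. It measured 31.0, 8.09 and 6.34 FPKM in the controls and 9.69, 10.6 and 7.54 FPKM with vitamin E. Control replicate 1 was 2.92-fold above the next library, and the other 5 lay within 1.67-fold of each other. The means were 15.1 ± 13.8 FPKM and 9.27 ± 1.57 FPKM (SD, n = 3 each). The log2 difference was -0.34 ± 0.51 (SE), with an interval from -1.54 to 0.86 (limma, adjusted p = 0.873). It turned to 0.32 ± 0.18 without control replicate 1 (interval -0.11 to 0.75; limma, adjusted p = 0.740). No row was named CHRNE, the name of the epsilon subunit gene, so gamma could not be set beside epsilon.

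The height of CHRND and CHRNG in control replicate 1 did not rest on few reads. CHRND rested on 2503 reads there and on 306 to 639 reads elsewhere, and CHRNG on 1220 and on 159 to 243. The counting error at the lowest of these numbers was 5.72% for CHRND and 7.93% for CHRNG, which leaves out the spread between samples. Part of the gap in reads is depth, as the implied total was 25477341 reads for control replicate 1 and 17203041 or fewer for the others. In FPKM, which allows for depth, that library was 5.21-fold above the lowest for CHRND and 4.89-fold for CHRNG. The height was noticed in these same data, and its cause was not tested. Of all tested genes, 1.25% were at least 2-fold higher in control replicate 1 than in every other library, and CHRND and CHRNG were 2 of the 8 junction genes that were. Control replicate 1 was the highest library for 4 of the 8 genes, against 24.9% of all genes.

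The subunits did not keep a fixed ratio to one another. CHRND was 37.9 times CHRNA1 in control replicate 1, 16.2 times in vitamin E replicate 3 and between 5.97 and 8.23 times in the other 4 libraries. CHRNG was 18.4 times CHRNA1 in control replicate 1 and between 3.09 and 4.52 times in the other 5. In the exact permutation test of the log2 ratios between the diets, which cannot go below 0.1 with 3 against 3 libraries, the two-sided p was 0.900 for CHRND and 1 for CHRNG. The ratio of CHRNG to CHRND, examined after the values were seen, lay between 0.440 and 0.538 in 5 libraries, control replicate 1 among them, and at 0.278 in vitamin E replicate 3. The 2 neighbouring genes thus stood in much the same proportion in control replicate 1 as in most libraries, and the alpha subunit did not move with them. Per-length levels depend on the gene model, whose implied length was 7486 bases for CHRNA1, 1542 for CHRND and 1545 for CHRNG, so the size of the ratios is less certain than their change between libraries.

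A row named LOC386576, which the table describes as an acetylcholine receptor beta subunit from its best protein matches, was looked up after its values were seen and is not among the 8 genes. It measured 4.01, 2.59 and 2.48 FPKM in the controls and 2.55, 2.12 and 1.93 FPKM with vitamin E. Control replicate 1 was again the highest library, 1.55-fold above the next. The log2 difference was -0.32 ± 0.17 (SE), with an interval from -0.73 to 0.093 (limma, adjusted p = 0.630), and it was -0.15 without control replicate 1.

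RAPSN encodes rapsyn, the scaffold beneath the receptor, and lies on chromosome 5 at 22861724 to 22872304. Its values were 9.54, 13.9 and 12.5 FPKM in the controls and 18.5, 11.4 and 14.3 FPKM with vitamin E. Control replicate 1, with the highest delta and gamma subunit levels, had the lowest rapsyn level. The means were 11.97 ± 2.21 and 14.7 ± 3.57 FPKM (SD, n = 3 each), and the log2 difference of 0.27 ± 0.20 (SE; interval -0.21 to 0.74) was the largest positive difference of the 8 and did not pass the test (limma, adjusted p = 0.728). It was 0.13 without control replicate 1.

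MUSK encodes the kinase that receives the agrin signal and lies on chromosome Z at 66717478 to 66761771. It measured 3.40, 1.96 and 3.01 FPKM in the controls and 2.78, 2.99 and 1.36 FPKM with vitamin E. Vitamin E replicate 3 was lowest, on 59 reads with a counting error of 13.0%, and the groups overlapped widely. The means were 2.79 ± 0.742 and 2.37 ± 0.887 FPKM (SD, n = 3 each). The log2 difference was -0.19 ± 0.24 (SE), with an interval from -0.76 to 0.39 (limma, adjusted p = 0.853). It turned to 0.055 without vitamin E replicate 3.

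DOK7, the adaptor that activates MuSK, lies on chromosome 4 at 82442153 to 82502055 and varied little. Its values were 7.21, 8.07 and 9.11 FPKM in the controls and 9.57, 7.68 and 6.54 FPKM with vitamin E, so that the vitamin E libraries spanned the control range. The log2 difference was -0.040 ± 0.16 (SE), with an interval from -0.41 to 0.33 (limma, adjusted p = 0.960). AGRN encodes agrin, which is secreted by the nerve ending and, in other forms, by muscle and vessels, and it lies on chromosome 21 at 2702505 to 2766159. AGRN measured 3.97, 3.84 and 3.62 FPKM in the controls and 3.22, 4.39 and 2.90 FPKM with vitamin E. Both the highest and the lowest library were in the vitamin E group, and the log2 difference was -0.11 ± 0.15 (SE; interval -0.45 to 0.24; limma, adjusted p = 0.857). It was -0.24 without vitamin E replicate 2 and -0.011 without vitamin E replicate 3. An antisense lncRNA shares 197 bases with AGRN and reached 0.0556 FPKM at most.

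NCAM1 encodes the neural cell adhesion molecule, which in mammals sits at junctions and spreads over denervated and regenerating fibres. It lies on chromosome 24 at 5781641 to 5862536. Its values were 22.3, 12.4 and 12.4 FPKM in the controls and 13.0, 12.2 and 12.4 FPKM with vitamin E. Control replicate 1 was 1.72-fold above the next library, while the other 5 lay within 1.07-fold of each other, the narrowest of the 8 genes. The means were 15.7 ± 5.72 and 12.5 ± 0.427 FPKM (SD, n = 3 each). Between the diets the log2 difference was -0.25 ± 0.22 (SE), with an interval from -0.77 to 0.26 (limma, adjusted p = 0.770), and it turned to 0.012 ± 0.11 without control replicate 1 (interval -0.26 to 0.28).

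**Figure D2:**
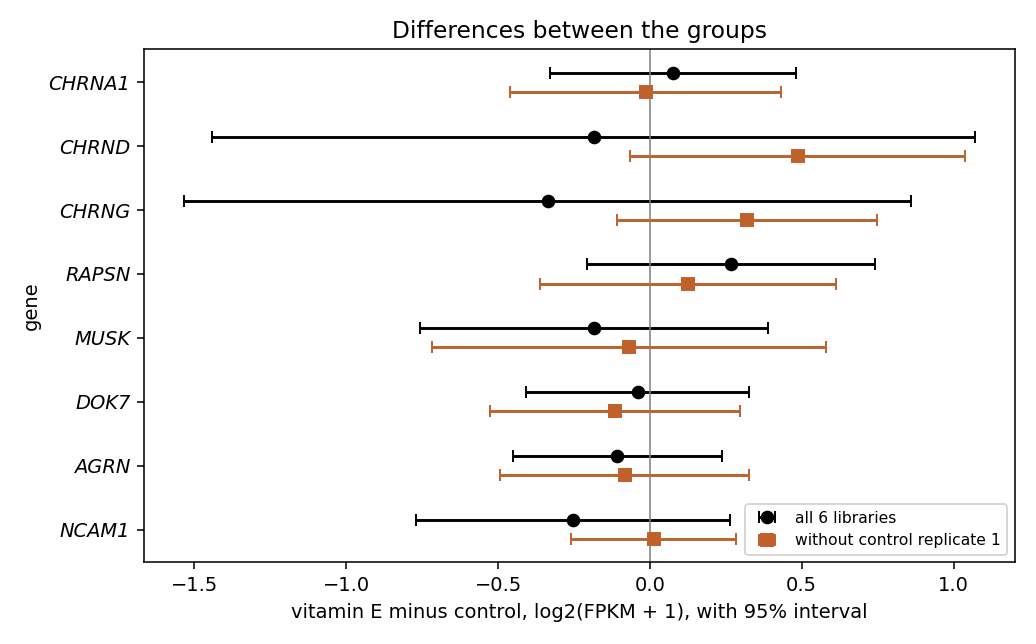
Difference between vitamin E and control for each of the 8 genes on the log2(FPKM + 1) scale, with 95% intervals from limma, over all 6 libraries (circles) and without control replicate 1 (squares). Every interval crosses 0, and the intervals of CHRND, CHRNG and NCAM1 are narrower without that library.

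The 8 genes differed in per-length level by about an order of magnitude. These levels depend on the gene model, whose implied length ran from 1542 bases for CHRND to 10539 for AGRN. By reads, NCAM1 was above CHRND and CHRNA1 was above MUSK in each library. CHRND averaged 26.6 FPKM over the 6 libraries, followed by NCAM1 at 14.1, RAPSN at 13.4, CHRNG at 12.2, DOK7 at 8.03, AGRN at 3.66, MUSK at 2.58 and CHRNA1 at 2.14. Of the neighbouring pairs in this order, only DOK7 and AGRN had ranges that did not overlap, and AGRN was also above MUSK within each of the 6 libraries. CHRND was above NCAM1 in 5 of 6 libraries, and NCAM1 was above RAPSN in 2 of 6. Vitamin E replicate 3 was the lowest library for CHRNA1, MUSK, DOK7 and AGRN, 4 of the 8 genes, against 15.7% of all genes. In that library CHRND was at its second highest.

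The gene whose library pattern was closest to that of CHRND, the junction gene with the widest range, was ACHE. ACHE encodes acetylcholinesterase, which ends transmission by breaking down acetylcholine. Likeness was measured as the root-mean-square difference of the mean-centred log2(FPKM + 1) values over the 6 libraries, and ACHE stood at 0.10 among 9932 genes with a symbol that are not in the set. ACHE measured 10.3, 2.72 and 1.73 FPKM in the controls and 2.25, 3.09 and 4.10 FPKM with vitamin E, on 280 reads in control replicate 1 and 30 to 67 elsewhere. The counting error at 30 reads was 18.3%, which leaves its exact distance uncertain. Its row lies at 146 to 1213 on a sequence record that was not assigned to a chromosome. As with CHRND, control replicate 1 was highest, vitamin E replicate 3 second and control replicate 3 lowest. The next closest were CSTA, of the cystatin family of protease inhibitors, at 0.22 and the histone H2A gene HIST1H2A4L3 at 0.22, an uncertain value, as reads may be split among nearly identical histone genes.

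Other junction genes followed CHRND to different degrees. Counting the set itself, ETV5 ranked 10 and CHRNG 14 of 9939 genes in closeness to CHRND, at 0.29 and 0.31, NCAM1 ranked 195 at 0.47, and the median gene stood at 0.73. ETV5, an ETS transcription factor that in mice is concentrated in the nuclei beneath the synapse, measured 13.2, 5.79 and 4.14 FPKM in the controls and 5.13, 6.45 and 10.4 FPKM with vitamin E. The remaining members were farther than the median gene or close to it, with MUSK at 0.74, AGRN at 0.72, DOK7 at 0.83, CHRNA1 at 0.83 and RAPSN at 0.90. When control replicate 1 was left out, a choice made after seeing the data, ACHE ranked 17 and ETV5 ranked 23, but CHRNG ranked 3316 at 0.34 and NCAM1 ranked 3972 at 0.35, close to the median gene at 0.37. The closeness of CHRNG and NCAM1 to CHRND thus rested on control replicate 1. These distances rest on 6 libraries, and within each library all genes share the same depth and RNA, so the distances describe these libraries only.

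**Figure D3:**
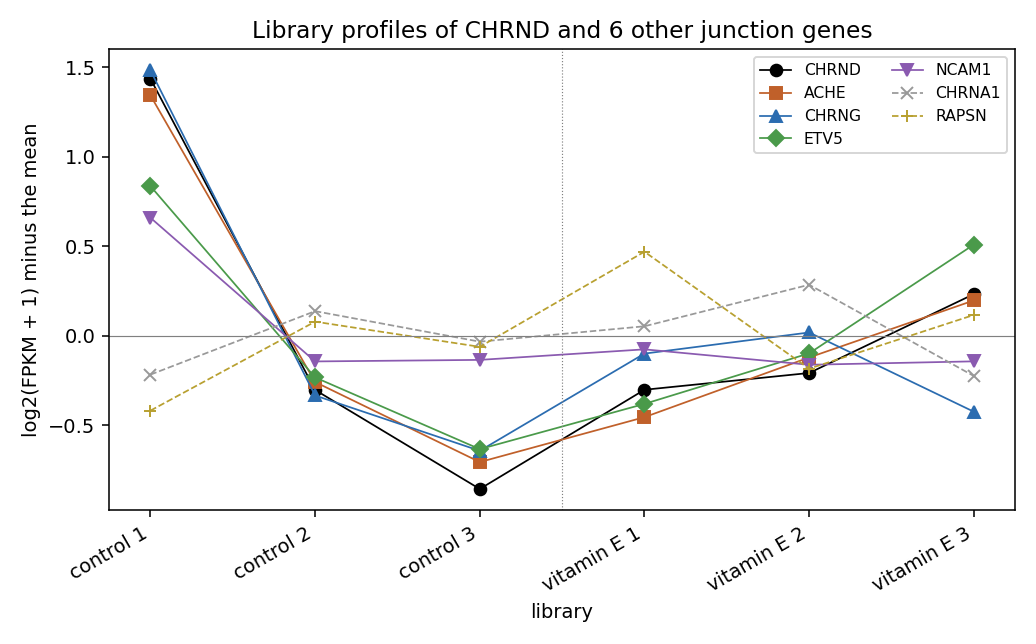
Mean-centred log2(FPKM + 1) of CHRND, ACHE, CHRNG, ETV5, NCAM1, CHRNA1 and RAPSN in each library, with lines only to link the points of 1 gene. CHRND and ACHE are highest in control replicate 1 and next highest in vitamin E replicate 3, whereas RAPSN and CHRNA1 lie below their means in control replicate 1.

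The pattern of CHRNA1 was shared too widely to single out partners. The closest genes were PTGS1, a prostaglandin synthase gene, at 0.040, CZH5ORF34 at 0.047 and the nuclear receptor gene NR2C2 at 0.049. The range of CHRNA1 over the 6 libraries was 0.51 on the log2 scale, and 2958 of 9932 genes lay within 0.20 of it.

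Markers of other cells differed in whether they were high in control replicate 1. The 5 satellite cell genes, which mark the resident muscle stem cells, summed to 74.6 FPKM in that library and to between 38.4 and 62.0 in the others. Within that list VCAM1 was at 31.8 FPKM against 10.3 or less elsewhere, and PAX3 at 2.17 against 0.581 or less, while PAX7 was at 5.22 against 4.68 or less and CDH15 at 22.3 against 18.6 or less. MYF5 had its lowest value in control replicate 1, at 13.03 FPKM against 13.08 to 35.4 in the others. The 6 endothelial markers had their lowest sum in control replicate 1, at 126.7 FPKM, against 139.3 to 201.6. The 6 fibroblast markers summed to 1499 to 1734 FPKM in controls and 2177 to 3041 with vitamin E. Limma called 0 of these 6 over all genes, and 5 were higher with vitamin E at an unadjusted p under 0.05 (5.97% of all genes). COL3A1 made up the largest part of the sum, and LUM and PDGFRA overlapped between the groups. The 8 Schwann cell markers in the table, PMP22 by far the highest, summed to 61.6 FPKM in control replicate 1 and to 36.8 to 52.7 elsewhere. Their part in the levels of CHRND, CHRNG and NCAM1 was not tested.

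No difference between the diets was called among the other genes of postsynaptic signalling and scaffolding. Of 22 listed genes 21 were in the table, all but CHRNE, and 17 were tested. Limma called 0 in either direction over all genes, with 0 at an unadjusted p under 0.05. Their median log2 difference was -0.032, and between -0.095 and -0.024 without single libraries, the lowest without control replicate 3. DTNA, which encodes the dystrophin-associated protein alpha-dystrobrevin, had the smallest p, with means of 26.3 ± 7.83 and 19.7 ± 1.35 FPKM in the control and vitamin E groups (SD, n = 3 each; limma, adjusted p = 0.630). The log2 difference of DTNA was -0.36, and -0.14 without control replicate 1, its highest library. The adaptor gene CRKL, the cytoskeletal linker gene MACF1 and the kinase gene CDK5 differed by -0.21, -0.23 and 0.23. CRKL was at -0.11 without control replicate 3, MACF1 at -0.089 without control replicate 1 and CDK5 at 0.045 without vitamin E replicate 2. LRP4, the agrin receptor gene, was below the minimum, at 0.949, 0.539 and 0.414 FPKM in the controls and 0.678, 0.610 and 0.556 FPKM with vitamin E, again highest in control replicate 1. Control replicate 1 was the highest library for 7 of the 17 tested genes, against 24.9% of all genes.

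In the synaptic basal lamina, the sheet of matrix that crosses the synaptic cleft, 10 of 11 listed genes were in the table and 8 were tested. Limma called 0 over all genes and 0 at an unadjusted p under 0.05, with a median log2 difference of -0.066 that turned to 0.068 without control replicate 1. The laminin chain gene LAMA4 differed by 0.21, the butyrylcholinesterase gene BCHE by -0.35, the nidogen gene NID2 by -0.13 and the dystroglycan gene DAG1 by -0.10. BCHE was highest in control replicate 1, at 13.6 FPKM against 8.55 or less elsewhere, and its difference was -0.017 without that library and -0.72 without control replicate 2. Without control replicate 1, LAMA4 was at 0.066, NID2 at -0.070 and DAG1 at -0.17, and DAG1 was at -0.037 without control replicate 3. NID2 was at -0.22 without control replicate 2. ACHE itself differed by -0.25 ± 0.49 (SE; limma, adjusted p = 0.912) and by 0.36 without control replicate 1. COLQ, the collagen tail that anchors acetylcholinesterase in the cleft, was below the minimum at 0.532 FPKM in control replicate 1 and between 0.115 and 0.288 in the others. Control replicate 1 was the highest library for 6 of the 8 tested genes of this list, against 24.9% of all genes. In the lists that follow, it was highest for 3 of 10 tested genes linked to loss of the nerve, 0 of 2 other nicotinic subunit genes and 4 of 10 membrane excitability genes.

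**Figure D4:**
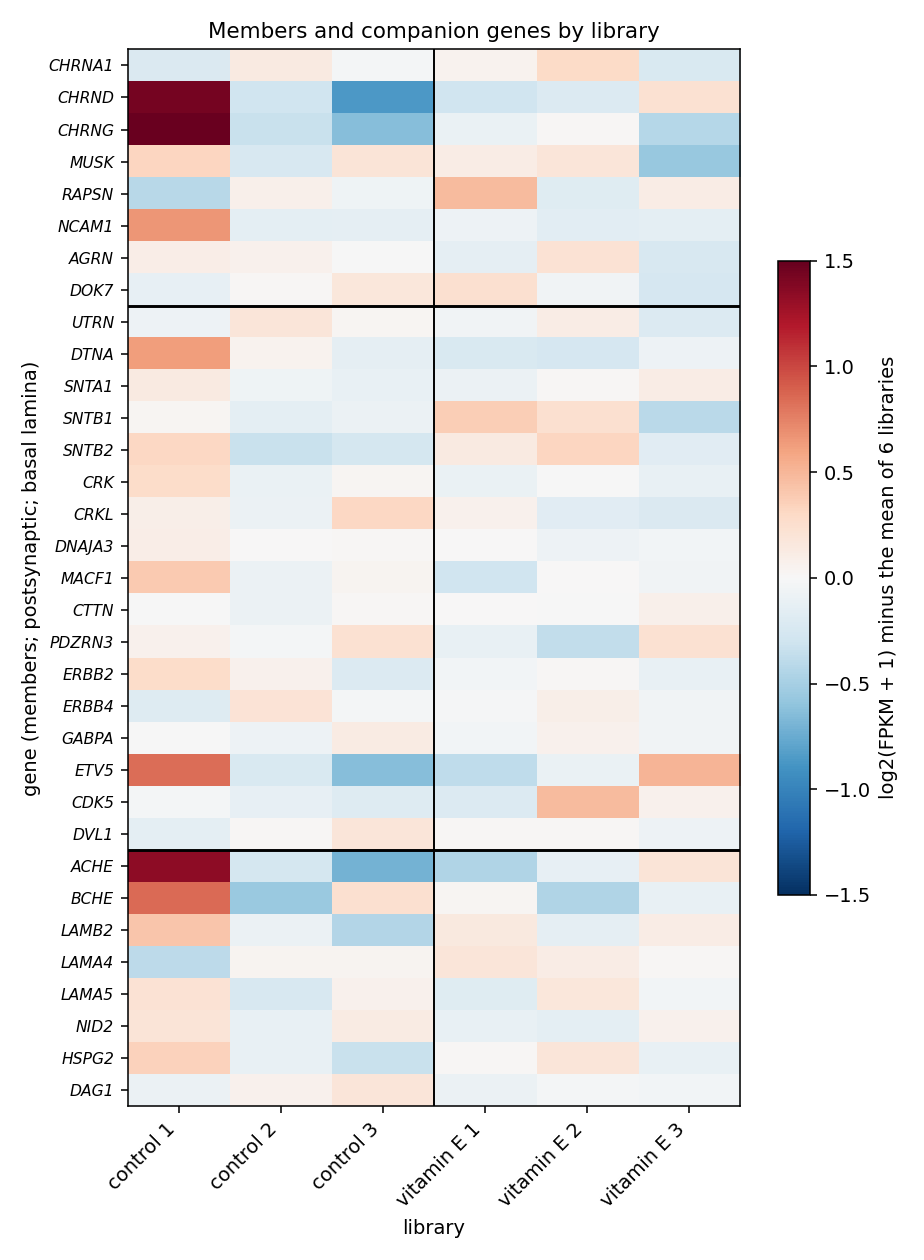
Mean-centred log2(FPKM + 1) of the 8 junction genes (top block), the 17 tested postsynaptic genes (middle) and the 8 tested basal lamina and cholinesterase genes (bottom) in each library, red above and blue below the gene's mean. The deepest red lies in control replicate 1 at CHRND, CHRNG and ACHE, and no block separates the 3 controls from the 3 vitamin E libraries.

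Genes linked to loss of the nerve differed in both directions, without a call. The list mixes activators and repressors of receptor subunit genes with other denervation-responsive genes, such as TRIM63 and FBXO32. The sign of its median difference therefore gives no direction of response. Of 12 listed genes 11 were in the table and 10 were tested. Limma called 0 over all genes, 2 were higher and 2 lower at an unadjusted p under 0.05 (5.97% and 3.14% of all genes), and the median log2 difference was -0.25, or -0.14 without control replicate 1 and -0.15 without control replicate 3. MYOG encodes myogenin, a transcription factor that activates receptor subunit genes in denervated muscle. It measured 14.2, 15.1 and 14.5 FPKM in the controls and 7.16, 10.6 and 10.6 FPKM with vitamin E. All 3 vitamin E libraries lay below all 3 controls, and the log2 difference was -0.60 ± 0.16 (SE; limma, unadjusted p = 0.00679, adjusted p = 0.361). MYOG was not raised in control replicate 1, and its difference was -0.62 without that library. Its part in the levels of CHRND and CHRNG was not tested.

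HDAC9, a histone deacetylase gene whose product in mice represses receptor subunit genes in innervated muscle, measured 4.70, 2.86 and 3.56 FPKM in the controls and 1.60, 2.17 and 2.41 FPKM with vitamin E. The groups did not overlap either, and the log2 difference was -0.61 ± 0.18 (SE; limma, unadjusted p = 0.0114, adjusted p = 0.398), or -0.47 without control replicate 1. The ubiquitin ligase genes TRIM63 and FBXO32, which are induced in wasting and denervated muscle, were higher with vitamin E, and neither overlapped between the groups. Of all tested genes 14.6% did not overlap. MYOG, HDAC9, TRIM63 and FBXO32 were named for having the smallest p in the list, so their lack of overlap is not separate evidence. TRIM63 lay between 89.5 and 155 FPKM in the controls and between 281 and 490 FPKM with vitamin E. FBXO32 lay between 9.83 and 33.7 FPKM and between 58.8 and 90.3 FPKM. The log2 differences were 1.68 (limma, unadjusted p = 0.000367, adjusted p = 0.248) and 1.84 (limma, unadjusted p = 0.0023, adjusted p = 0.296), larger than those of MYOG and HDAC9. ANKRD1, an ankyrin repeat gene of stressed and denervated muscle, was at 1798 FPKM in control replicate 1 and between 253 and 595 in the other libraries. RUNX1, a transcription factor gene induced by denervation in mice, was at 6.25 FPKM in control replicate 1 and between 2.58 and 3.26 elsewhere. ANKRD1 and RUNX1 were named after their values were seen, and a link to CHRND and CHRNG was not tested.

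Of 12 other nicotinic subunit genes, which form the receptors of neurons and sensory cells, 11 were in the table and 2 reached the minimum. CHRNA5 averaged 4.28 ± 1.55 and 4.94 ± 1.22 FPKM, and CHRNA9, a subunit of hair cell receptors, averaged 3.73 ± 2.68 and 4.46 ± 3.24 FPKM (SD, n = 3 each). Neither was called by limma (adjusted p = 0.854 and 0.935), and both turned to the opposite sign without control replicate 1, at -0.075 and -0.14. CHRNA9 was highest in vitamin E replicate 2, at 8.15 FPKM, and lowest in control replicate 1, at 1.70 FPKM. Per length, both were above CHRNA1 in each of the 6 libraries, CHRNA9 in control replicate 1 only narrowly. That order depends on the gene models, whose implied length was 7486 bases for CHRNA1, 1365 for CHRNA5 and 1455 for CHRNA9. In reads CHRNA1 was above both in each library, with 191 to 321 reads. CHRNA5 had 72 to 126 reads and CHRNA9 had 47 to 176.

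Genes of fibre membrane excitability, which carry the signal from the junction along the fibre, showed 0 calls by limma among 10 tested genes and 0 at an unadjusted p under 0.05. Their median log2 difference was 0.062, and -0.036 without control replicate 3. The muscle sodium channel gene SCN4A averaged 17.2 ± 0.720 and 16.5 ± 1.01 FPKM in the control and vitamin E groups (SD, n = 3 each). The sodium pump beta subunit genes ATP1B1 and ATP1B4 differed by -0.43 and 0.25 and the potassium channel gene KCNJ2 by 0.20. ATP1B1 was at 56.7 FPKM in control replicate 1 and at 31.4 or less elsewhere, and its difference was -0.14 without that library. ATP1B4 was at 0.089 when vitamin E replicate 2 was left out and at 0.12 when control replicate 3 was, and KCNJ2 at 0.13 and 0.32 without vitamin E replicates 1 and 3.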

How the data were processed

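The authors deposited FPKM values per gene for 6 libraries in 1 table. Alignment used TopHat2 2.0.12, per the submitters' processing notes. Not given in the sources used here were the counter, the annotation, the strand setting and the build. Gene positions are as deposited. Sequence records were turned into chromosome names through symbols shared with RefSeq's gene table (at least 99.2% of a record's symbols pointed to 1 chromosome, for each junction gene). Genes were matched by name only.

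Within a library, each deposited FPKM value is a whole number of steps of 1 read, and from these steps the reads, model lengths and totals were worked out for all 11320 tested genes. Read numbers with a factor in common come out too small by that factor, as does the length. Reads are not independent molecules, so counting errors, taken as the square root of the reads, cover counting only. The test was limma 3.58.1 (R 4.3.3) with an intensity trend, on log2(FPKM + 1), two-sided. Genes averaging 1 FPKM or more were tested, and p-values were adjusted over all 11320 of them (Benjamini-Hochberg). The test was checked on simulated reads, where it called 46.0% of 2-fold and 96.0% of 4-fold changes, and 5.33% of its calls were false. The spread between simulated samples was set and not taken from these data, so these shares need not hold for genes such as CHRND and CHRNG.

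The members and lists were chosen with earlier results of these data known. Beside the members, the text names up to 4 genes with the smallest p in each of 5 lists and the 3 nearest patterns of CHRNA1 and of the member with the widest range. One gene that this rule names is not reported here. Other genes of the lists were named after their values were seen. Promoter motifs had been planned and were not searched, since no sequence was used here. Alternatives were other pseudocounts, filters, scalings, priors and weights, blocks (replicate number, or a digit of the sample description), voom on the recovered reads and leaving out each library. Figures were drawn with matplotlib 3.10.9.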

Additional observations from a re-analysis of the deposited data

How the results depend on the processing

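Of the 8 genes, 0 were called under each of 13 other settings and without each of the 6 libraries, and the 5 lists had 0 calls throughout. Over all genes, limma called 0 (1031 at an unadjusted p under 0.05), against 2 with a minimum mean of 5 FPKM and 2 with voom on recovered reads. Without single libraries that count ranged from 0 to 0. CHRNA1, MUSK and AGRN were not tested at the minimum of 5 FPKM. The median log2 difference of all genes stayed between -0.0060 and 0.036 under the alternatives.

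Signs turned mostly with single libraries, and the cause was not tested. Without control replicate 1, CHRNA1 turned to -0.014, CHRND to 0.49, CHRNG to 0.32, NCAM1 to 0.012, CHRNA5 to -0.075, CHRNA9 to -0.14 and ACHE to 0.36. The log2 ratios to CHRNA1 turned to 0.54 for CHRND and 0.39 for CHRNG, and over single libraries they ranged from -0.79 to 0.54 and from -0.90 to 0.39. The median of the basal lamina list turned to 0.068 and that of the other nicotinic subunits to -0.11. Without control replicate 3, DOK7 turned to 0.036 and the median of the membrane excitability list to -0.036. Without vitamin E replicate 2, CHRNA1 turned to -0.048 and CHRNA9 to -0.26. Without vitamin E replicate 3, MUSK turned to 0.055, DOK7 to 0.075 and the log2 ratio of CHRNG to CHRND to 0.15. CHRND turned to 0.031 with library weights. ETV5, near 0, fell to -0.0035 (TMM-type scaling), -0.0043 (median of ratios), -0.0053 (quantile normalization) and -0.011 (voom). It turned to -0.091, -0.29 and -0.23 without control replicate 2, control replicate 3 and vitamin E replicate 3. Over all single libraries left out, the log2 difference ranged from -0.048 to 0.21 for CHRNA1, -0.66 to 0.49 for CHRND, -0.74 to 0.32 for CHRNG, -0.35 to 0.055 for MUSK, -0.39 to 0.012 for NCAM1, -0.17 to 0.075 for DOK7 and 0.10 to 0.43 for RAPSN. It ranged from -0.075 to 0.38 for CHRNA5, -0.26 to 0.63 for CHRNA9, -0.67 to 0.36 for ACHE and -0.29 to 0.44 for ETV5, and the ratio of CHRNG to CHRND from -0.33 to 0.15.

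Libraries with the same replicate number correlated at -0.13, 0.15 and 0.012 in their deviations from the group means, so the numbers were not taken as pairs. The replicate block gave 0 calls over all genes and 0 among the 8 genes, and a block for the description digit gave the same counts. Among the 8 genes, MUSK, with 59 to 246 reads, had the largest counting error.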

Other observations

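GAP43, which encodes a protein of growing axon tips, was among the axon markers below the minimum of 1 FPKM and was not tested. It measured 0.0775, 0.574 and 0 FPKM in control replicates 1 to 3 and 1.67, 1.66 and 0.258 FPKM with vitamin E, on 2, 10, 0, 24, 25 and 4 reads. Vitamin E replicates 1 and 2 lay above the other 4 libraries, and the groups overlapped. It was chosen after its values were seen, and the other axon markers did not all share its direction. Group means of SNAP25, SYT1, NEFL, NEFM and CHAT were lower with vitamin E, and those of NEFH, SLC18A3 and ISL1 were higher. The control and vitamin E means were 0.115 and 0.0547 FPKM for SNAP25, 0.142 and 0.0725 for SYT1, and 0.196 and 0.326 for NEFH. These markers rested on 21 reads or fewer per library, and none was tested. COL13A1, a membrane collagen of the junction, was also below the minimum. It averaged 0.865 ± 0.0578 and 0.549 ± 0.145 FPKM in the control and vitamin E groups (SD, n = 3 each). All 3 vitamin E libraries lay below all 3 controls, where 14.6% of all tested genes did not overlap between the groups. COL13A1 was likewise chosen after its values were seen and not tested.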
